A study of Mus musculus with 2 samples.

Results

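The genes of the autophagy machinery and its cargo receptors were compared between 2 arrays of RAW264.7 cells, a mouse line with macrophage character, in a series that asks how active the transcription factor TFEB is in cells without Ragulator. The set holds 34 genes, taken by name from 27170 gene names on the array, and was grouped by step into initiation and membrane supply, the lipid kinase and its readers, conjugation, receptors, and maturation. Of these, 33 were measured, as were 15330 of all gene names; a gene counted as measured if either array had its brightest probe well above background. The remaining gene, Optn, which encodes the receptor optineurin, had signals of 4.95 (control) and 5.10 (knockdown), neither of them well above background.

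The groups were control RAW264.7 cells and Lamtor1 knockdown RAW264.7 cells, with 1 array each, both cultured in the same medium. Lamtor1 encodes the subunit that anchors Ragulator to the lysosome. Per the labels, short hairpin RNA was delivered by a lentivirus that mixed 2 vectors, and cells were diluted to low numbers 2 days later. The labels attach this protocol to the control sample too, and neither what the control cells received nor whether a sample is a single clone is given in the sources used here. Knockdown, clone and culture therefore cannot be told apart, and with 1 array per group there is no replicate check and no test of any difference below. Fewer cells of a type and less RNA per cell cannot be told apart in such bulk samples either.

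In macroautophagy a membrane sheet grows around cargo and closes into an autophagosome, which then fuses with the lysosome. A kinase complex starts the process, a lipid kinase marks the membrane with phosphatidylinositol 3-phosphate, and a pair of ubiquitin-like conjugation reactions attaches proteins of the ATG8 family (LC3 and GABARAP) to the membrane lipid. Receptors bind ATG8 proteins on one side and ubiquitinated cargo on the other. TFEB, which mTORC1 on the lysosome keeps inactive in fed cells, binds E-box motifs of lysosome and autophagy genes.

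Lamtor1 had processed signals of 20046 (control) and 931 (knockdown), and after scaling of the arrays it was at 4.34% of control. The control array had 53.3% and the knockdown array 52.9% of 43020 spots well above background, and no spot was saturated. All 8 macrophage markers looked for were well above background on both arrays, and none of the 3 epithelial or 2 B cell markers was. Of the 3 fibroblast markers, Col1a2 was above background, and their summed signal was 48.1 and 42.1, against 368803 and 274015 for the macrophage markers. The summed signal was 18.7 and 20.7 for the epithelial and 10.6 and 14.8 for the B cell markers. Of the 2 T cell markers, Cd3e was above background at 445 and 493, and Cd3g was at 5.97 and 6.21. After scaling, among the macrophage markers, Adgre1 was 2.95-fold, Itgam 1.79-fold, Csf1r 1.77-fold, Lyz2 1.37-fold and Cd14 1.16-fold lower in the knockdown. Cd68 was at 233%, Ptprc at 119% and Spi1 at 105% of control. Their part in the results below was not tested.

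Signals are the scanner's processed intensities. A level is the log2 of that signal over its array's 75th percentile (1172 for control, 1255 for knockdown), and a difference is the knockdown level minus the control level. This scaling lowers each difference by 0.10 against the plain signals. Folds and percentages of control are given after scaling, so they differ from the ratio of the signals printed beside them.

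Autophagy genes were mostly a little higher in the knockdown, and few differed by much. Of the 33 measured genes, 25 (75.8%) had a difference above 0, against 44.7% of all measured genes, and the median difference was 0.39 against -0.06. Only 3 were at least 2-fold higher, a share of 9.09% beside 9.00% of all measured genes, and 1 was at least 2-fold lower (3.03% beside 8.83%). The count at 2-fold was thus near the background in the upper direction. All 33 genes were above background on both arrays, and of the 13787 genes for which that held, 6.13% were 2-fold higher, 5.56% 2-fold lower and 44.5% above 0. At 1.5-fold, 6 genes were higher (18.2% beside 15.2%, or 12.4% of genes above background on both arrays) and 2 lower (6.06% beside 16.9%, or 13.7%). With median scaling 13 genes (39.4%) were 1.5-fold higher, beside 17.4% of all measured genes, and with cyclic loess 8 (24.2% beside 17.0%). With quantile normalization it was 5 (15.2% beside 15.8%). With the 75th percentile taken over probes above background it was also 5 (15.2% beside 14.2%). In both of these last settings the share at 1.5-fold was near the background. The split at 2-fold was 3 higher and 0 lower with median scaling, cyclic loess, quantile normalization or normexp. Of all measured genes, 9.93%, 9.80%, 9.31% and 5.49%, in that order, were then 2-fold higher, and 7.91%, 7.96%, 8.30% and 4.37% 2-fold lower. As the median over a gene's probes the split was 2 higher and 0 lower, beside 9.01% and 8.97% of all genes. The median difference was then 0.25. Without the 3 genes at least 2-fold higher, Tecpr1, Tax1bp1 and Atg7, the median was 0.24. Those genes were picked by their own values, so leaving them out could not raise the median. The background was not cut likewise.

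**Figure D1:**
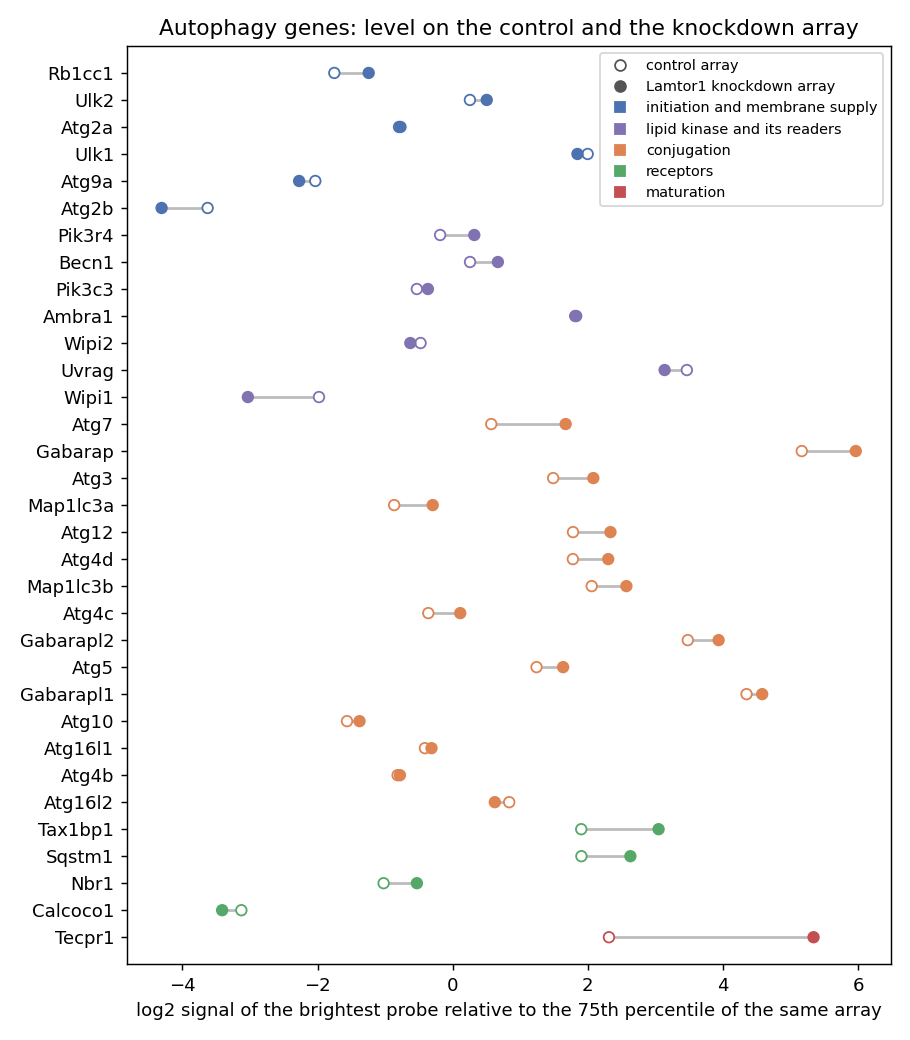
Level of each of the 33 measured genes on the control array (open circle) and the Lamtor1 knockdown array (filled circle), as log2 signal of the brightest probe relative to the 75th percentile of the array, coloured by step. Levels of different genes come from different probes and are not comparable, but the gap within a gene is its difference, from -1.05 for Wipi1 to 3.03 for Tecpr1.

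**Figure D2:**
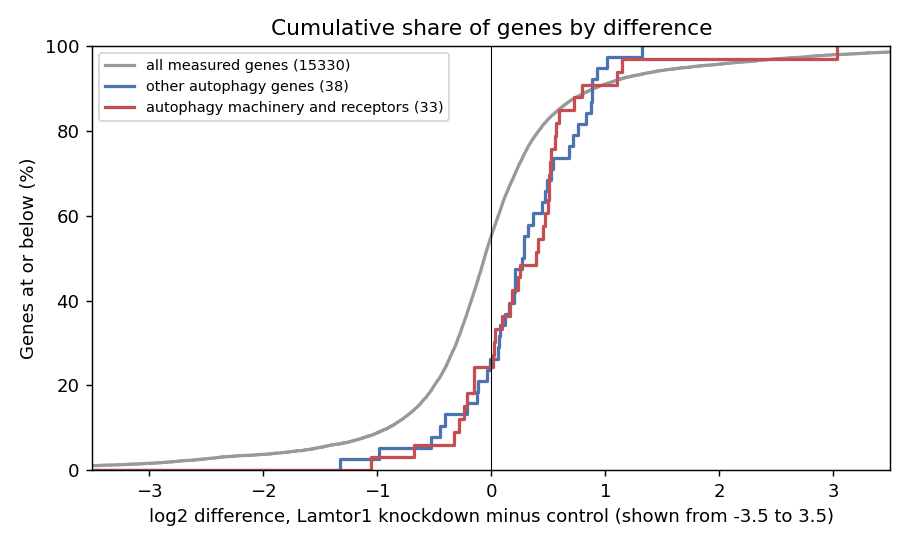
Share of genes (%) at or below each log2 difference, for the 33 measured genes, 38 other autophagy genes and all 15330 measured genes. The curves of both autophagy sets cross 0 lower than that of all genes, since 75.8% and 73.7% of them lie above 0 against 44.7%.

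The error that can be measured is that between spots. The Map1lc3b probe, for the LC3B protein that marks autophagosomes, was spotted 10 times. Its control signals ran from 4713 over a median of 4873 to 5085, and its knockdown signals from 7260 over 7412 to 7932. Every knockdown spot was above every control spot, and the mean difference was 0.51 ± 0.04 (SD, n = 10 spots). Pik3r4, the regulatory subunit of the lipid kinase, had 10 spots as well. Its control signals ran from 907 over 1044 to 1096, and its knockdown signals from 1338 over 1582 to 1665. These spots did not overlap between the arrays either, and the mean difference was 0.51 ± 0.02 (SD, n = 10 spots). Over 216 probes spotted several times the median SD of the difference was 0.04 for spots paired by position and 0.08 unpaired, and it was 0.12 for the 42 probes with a control signal under 300. This spread covers spotting and scanning, not cultures. What share of the 216 probes also had spots that did not overlap between the arrays is not given here, so the lack of overlap sets neither gene apart.

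**Figure D3:**
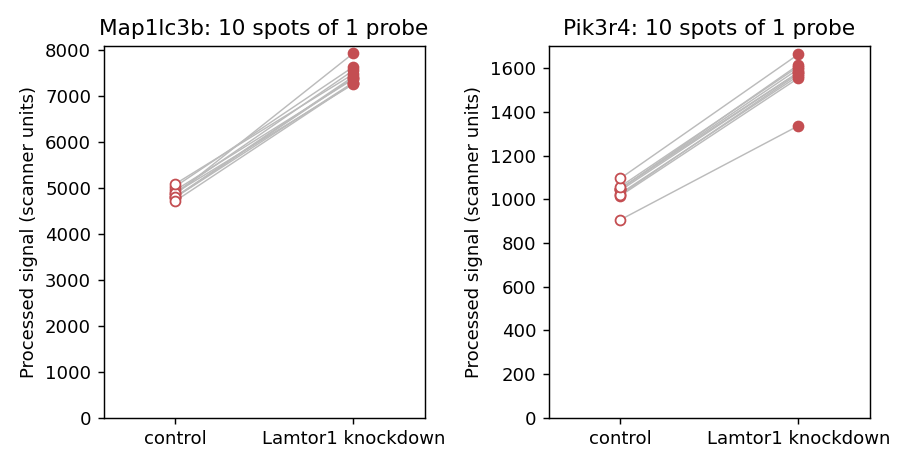
Processed signal (scanner units) of each of the 10 spots of the Map1lc3b probe and the Pik3r4 probe on the control array (open) and the Lamtor1 knockdown array (filled), with lines joining spots at the same position. For both probes the lowest knockdown spot, 7260 and 1338, lies above the highest control spot, 5085 and 1096.

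Different probes of a gene differed by more than spots of 1 probe did. For the 11 genes where more than 1 probe was above background in both samples, the median gap between the differences of a gene's probes was 0.27, and the probes of 8 genes had the same direction. The other 3 were Ulk2, Rb1cc1 and Wipi2. The widest gap, 0.76 for Ulk2, is larger in size than the difference of 28 of the 33 genes. The other 22 genes rest on a single probe. The probes of Atg4c, which start at bases 3063 and 3079 of the transcript, overlap, as do those of Pik3c3, at 2257 and 2304.

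**Figure D4:**
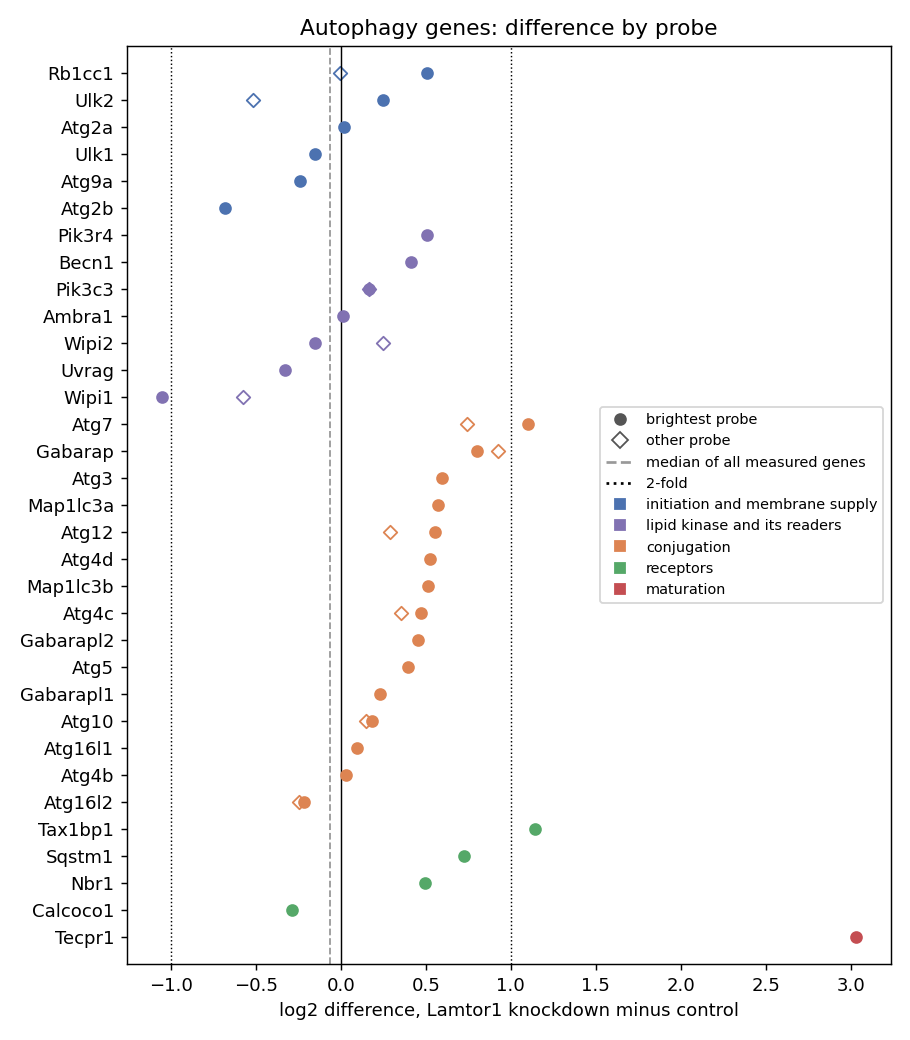
log2 difference (knockdown minus control) of the brightest probe (circle) and of other probes above background (diamond) for each of the 33 measured genes, coloured by step, with dotted lines at 2-fold and a dashed line at the median of all measured genes, -0.06. Conjugation genes lie right of 0 except Atg16l2, and genes of the first steps lie on both sides.

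Genes of initiation and membrane supply did not share a direction. Of 6 genes, 3 were above 0 (50%, beside 44.7% of all measured genes) and none reached 2-fold, with a median of -0.07. Ulk1, the kinase that starts autophagy and is a substrate of mTORC1, had signals of 4681 (control) and 4515 (knockdown), a difference of -0.15. Its paralog Ulk2 had 1398 and 1780 at its brightest probe, a difference of 0.25. A second Ulk2 probe, further towards the 3' end, had 194 and 145, a difference of -0.51. The Ulk2 probes thus gave opposite directions, and the gene's direction was not settled. Rb1cc1, the FIP200 scaffold of the kinase complex, had signals of 348 and 530 at a probe whose 60 bases span 3136 bases of the genome, so that it crosses at least 1 intron, and its difference there was 0.51. Its other probe had 340 and 363, a difference of -0.0023. Rb1cc1 was therefore higher at its probe nearer the 5' end and level at the other. Atg9a, the lipid scramblase on vesicles that seed the membrane, had 286 and 260, a difference of -0.24. The lipid transfer proteins Atg2a and Atg2b differed from each other. Atg2a had 676 and 735, a difference of 0.02, within the spread between spots and -0.02 with the percentile over probes above background, and Atg2b had 94.8 and 63.3, a difference of -0.68. Both Atg2b signals are dim, and the difference was -0.42 after normexp correction.

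The lipid kinase and its readers were also mixed, with 4 of 7 genes above 0 (57.1%, beside 44.7%) and a median of 0.02. The 3 core subunits were higher. Pik3c3, the catalytic subunit VPS34, had signals of 811 and 973 at its brightest probe, and its 2 overlapping probes both gave 0.16. Pik3r4 had a difference of 0.51, as above. Becn1, the Beclin 1 subunit, had 1400 and 1996, a difference of 0.41, at a probe that crosses an intron. These are 1.12-fold, 1.42-fold and 1.33-fold. The partners of the kinase in this set, Uvrag and Ambra1, were lower and level. Uvrag, which directs the kinase to endosomes and later steps, had 12949 and 11044, a difference of -0.33. Ambra1, which joins Beclin 1 to ubiquitin ligases, had 4117 and 4458, a difference of 0.02 that was -0.03 with the percentile over probes above background.

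Wipi1 was the gene with the lowest difference. WIPI proteins read phosphatidylinositol 3-phosphate on the growing membrane, and WIPI2 recruits the conjugation complex. The brightest Wipi1 probe had signals of 297 and 153, 2.07-fold lower after scaling, and its other probe had 54.2 and 38.9, a difference of -0.58. Both probes were lower on the knockdown array. Its difference was -1.05, and it was above -1 and so under 2-fold with median scaling (-0.96), quantile normalization (-0.99), cyclic loess (-0.96), normexp (-0.77) or the median over probes (-0.82). Wipi2 had 843 and 813 at its brightest probe, a difference of -0.15, and 569 and 723 at the other, a difference of 0.25. Its direction was not settled.

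The conjugation genes were the largest group and mostly shared a direction, with 14 of 15 above 0 (93.3%, beside 44.7% of all measured genes). Only 1 was at least 2-fold higher (6.67%, beside 9.00%), and the median was 0.47. Their differences ran from -0.21 to 1.10. The 5 genes of the ATG8 family, which are coupled to the membrane, were all higher, from 0.23 to 0.80. Gabarap had signals of 42117 and 78520, 1.74-fold after scaling, and its other probe gave 0.92, so that both probes were higher by similar amounts. Map1lc3a had 643 and 1023, a difference of 0.57, and Map1lc3b had 0.51. Gabarapl2 had 13075 and 19221, a difference of 0.46. Gabarapl1 had the smallest difference of the family, with 23894 and 30051 and 0.23. The family was higher under all 12 processing alternatives, with the lowest value 0.19 for Gabarapl1.

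Atg7, the enzyme that activates both ATG8 proteins and ATG12, had the largest difference of the group. Its brightest probe had signals of 1741 and 4001, a difference of 1.10, and its other probe, nearer the 5' end, had 682 and 1221, a difference of 0.74. Both probes were higher, but the median over them was 0.92, under 2-fold. Atg3, which transfers ATG8 proteins to the lipid, had 3285 and 5314, 1.51-fold after scaling. Atg10, which transfers ATG12 to ATG5, had 396 and 483, and its probes gave 0.15 and 0.19. Atg3 was thus higher by more than Atg10.

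ATG5, ATG12 and ATG16L1 form the complex that places ATG8 proteins on the membrane. Atg12 had signals of 4027 and 6336, a difference of 0.55, and its other probe gave 0.29. Atg5 had 2771 and 3897, a difference of 0.39. Atg16l1 had 881 and 1010, a difference of 0.10, and its paralog Atg16l2 had 2093 and 1934, a difference of -0.21 with -0.25 at the other probe. Atg16l2 was the conjugation gene that was lower on the knockdown array.

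The proteases of the ATG4 family trim ATG8 proteins before coupling and free them from the membrane later. Atg4d had 4021 and 6192, a difference of 0.52. Atg4c had 912 and 1357, a difference of 0.47, and 0.35 at its other probe, which overlaps the first. Atg4b had 666 and 731, a difference of 0.03, which is within the spread between spots and was -0.01 when the percentile was taken over probes above background. Atg4d and Atg4c were higher by like amounts and Atg4b was level.

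E-box motifs were looked for in RefSeq promoter windows of the GRCm38.p6 assembly, each running from 250 bases before to 50 after a start site, since TFEB binds such motifs. Of the 33 measured genes, 27 had a window. Rb1cc1, Becn1, Pik3c3, Atg12, Atg16l1 and Map1lc3a were not matched. The core CACGTG, the same on both strands, was in windows of 3 genes (11.1%), against 11.4% of 9178 measured genes with a window. The longer form TCACGTGA, which contains the core, was in windows of 1 gene (3.70%), against 2.04%. The form GTCACGTGAC was in none, against 0.74%. Over all 32851 windows of this length these shares were 7.15%, 0.97% and 0.33%. The share of these genes with the core was thus near that of measured genes. The sequences show only a stretch around the matches, upstream of the start site, in the 3 windows with a match. They begin 154 (Atg3), 74 (Atg5) and 192 (Atg7) bases before it. They run 5' to 3', all on the plus strand, with each match in capitals.
Atg3, chr16:45158675-45158823: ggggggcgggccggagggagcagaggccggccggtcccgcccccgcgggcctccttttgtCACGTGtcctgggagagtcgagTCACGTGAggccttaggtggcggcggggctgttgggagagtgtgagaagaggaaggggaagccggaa
Atg5, chr10:44268265-44268338: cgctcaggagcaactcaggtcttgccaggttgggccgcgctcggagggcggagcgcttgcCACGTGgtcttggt
Atg7, chr6:114670904-114671029: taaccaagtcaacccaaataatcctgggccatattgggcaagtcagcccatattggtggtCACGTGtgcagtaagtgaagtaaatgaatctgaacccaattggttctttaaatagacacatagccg
Atg3 holds 2 cores, which begin 94 and 71 bases before the start site, the nearer one in the longer form. The Atg5 core begins 14 bases before its start site and the Atg7 core 132. The start site of the Atg7 window lies 27969 bases inside the annotated gene, so it is a later one, and that of the Atg5 window lies 17 bases inside. All 3 genes were higher, at 0.59 for Atg3, 0.39 for Atg5 and 1.10 for Atg7, and 16 of the 24 genes with a window and no core were above 0, with a median of 0.21. Tecpr1, Tax1bp1 and Sqstm1 were among those 24. A match is a description of letters and not of binding.

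Of the receptors, 3 of 4 measured genes were higher (75%, beside 44.7% of all measured genes), with a median of 0.61. Tax1bp1, a receptor for ubiquitinated cargo that also damps inflammatory signalling, had signals of 4382 and 10382, 2.21-fold after scaling, at a probe that crosses an intron. Sqstm1, the receptor p62, which is itself degraded in autophagosomes, had 4390 and 7773, 1.65-fold after scaling. Nbr1, a relative of p62, had 577 and 870, a difference of 0.49. Calcoco1, a receptor in turnover of the endoplasmic reticulum, was lower, with 134 and 118 and a difference of -0.28. Tax1bp1, Sqstm1 and Nbr1 each rest on 1 probe.

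Tecpr1 stood far from the others. It encodes a protein that binds the ATG12 to ATG5 conjugate and acts where autophagosomes meet lysosomes. Its single probe had signals of 5824 (control) and 50898 (knockdown), a difference of 3.03 or 8.16-fold after scaling, which ranked 313 from the highest among 15330 measured genes. It was between 2.99 and 3.12 under the alternatives. That probe maps to chr5:144956314-144956373 of mm9, the build of the files. Wipi2 lies 1.81 Mb away on the same chromosome, with the values given above.

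Autophagy genes outside the set showed a like pattern on the same 2 arrays. Of 39 on a list by the same steps, 38 were measured, and Rab1a was not matched by name. That list was chosen with earlier results of these data known, so it is not an independent check. A difference above 0 was found for 28 of them (73.7%), with a median of 0.28. Past 2-fold were 2 genes in the upper direction (5.26%, beside 9.00% of all measured genes) and 1 in the lower (2.63%, beside 8.83%), both shares below the background. Counts at 2-fold ran from 1 to 3 higher and from 0 to 2 lower under the alternatives. Ncoa4, the receptor that delivers ferritin to autophagosomes, had signals of 7371 and 19773, 2.50-fold after scaling. Snap29, a SNARE protein of autophagosome fusion, had 3007 and 6499, 2.02-fold after scaling. Stbd1, which tethers glycogen to ATG8 proteins, had 90.2 and 38.6, 2.50-fold lower after scaling. For Atg4a, the remaining ATG4 gene, the knockdown signal was dim, so the difference is a bound of at least 1.53-fold lower.

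By step, the list outside the set resembled the set in part. Its only conjugation gene, Atg4a, was lower, with the bound given above, whereas 14 of 15 conjugation genes of the set were above 0. The counts above 0 that follow stand beside 44.7% of all measured genes. Of 10 maturation genes, 9 were above 0, with a median of 0.46. Besides Snap29, its SNARE partner Vamp8 had 8217 and 16213 and a difference of 0.88, and Plekhm1, an adaptor that links autophagosomes to lysosomes, had 4291 and 7762 and a difference of 0.76. Of 15 receptors, 11 were above 0, with a median of 0.21. Receptors of mitochondria lay on both sides of 0, from -0.53 for Phb2 to 0.83 for Fkbp8. Receptors of the endoplasmic reticulum on this list ran from 0.06 for Sec62 to 0.93 for Tex264, which had 9066 and 18504, whereas Calcoco1 was at -0.28. Of 5 genes of initiation and membrane supply, 4 were above 0 with a median of 0.28, and of 7 genes around the lipid kinase, 4 with a median of 0.12. Atg13, the adaptor of the ULK kinases, had 14540 and 21896, a difference of 0.49, and Atg14, which directs the lipid kinase to autophagosomes, had 1055 and 1295, a difference of 0.20.

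The position of each gene was set against its neighbours, a comparison chosen after the data were seen. The median difference of measured genes within 5 Mb of a probe ran from -0.20 around Atg2b to 0.29 around Pik3r4, on chromosome 9. The 127 genes around Pik3r4 had a middle range, from the first to the third quartile, of 0.03 to 0.73, and the difference of Pik3r4, 0.51, lay inside it, at 0.21 above their median. Less the neighbours' median, 24 of 33 genes were above 0 with a median of 0.24, 3 were at least 2-fold higher and 1 lower, and 1 gene, Ambra1, had the other sign. The same subtraction was not made for all measured genes, so these counts have no background share beside them. Tecpr1 was 3.14 above its 101 neighbours, Tax1bp1 1.27 above its 74 and Atg7 1.24 above its 74. Wipi1, with 64 neighbours, was at -1.11 to their median. What sets the level around Pik3r4 was not tested.

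**Figure D5:**
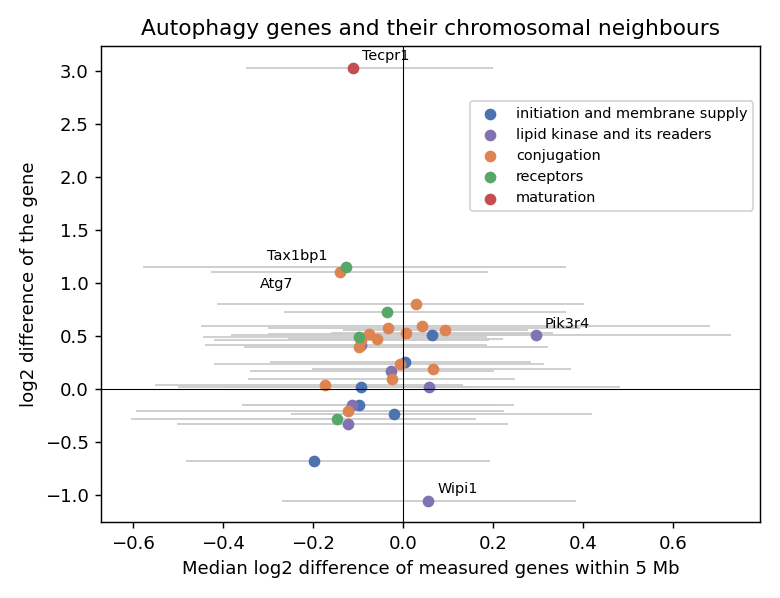
log2 difference of each of the 33 measured genes (y axis) against the median log2 difference of measured genes within 5 Mb of its probe (x axis), coloured by step, with grey lines from the first to the third quartile of the neighbours. Tecpr1, at 3.03, lies far above neighbours with a median of -0.11, and Pik3r4 has the highest neighbour median, 0.29.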

How the data were processed

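Total RNA of 1 control and 1 Lamtor1 knockdown sample was labelled with Cy3, each on its own 1-colour Agilent array. The authors deposited the processed intensity of every spot, and the submitters' processing notes name Agilent Feature Extraction 10.7.3.1. Spatial and multiplicative detrending and surrogate values were switched on and local background correction off, and both arrays were on 1 slide in 1 scan, per the file headers. The deposited value table holds the same linear, uncentred intensity rounded to 3 significant digits (ratios of 0.995 to 1.005 to the scanner values, column medians of 28.0 and 27.8).

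Here the log2 75th percentile of each array, over all but control spots, was subtracted from log2 intensities. Spots marked as outliers (162 control, 177 knockdown) were dropped, and repeated spots were averaged in log2. Genes were matched by the gene name in the files and took their brightest probe. Of 39 list genes outside the set, 8 were found by an older symbol, through RefSeq synonyms. Genes were counted at 2-fold, with 1.5-fold added after the data were seen. The members and lists were chosen with earlier results of these data known. Named are all 34 genes, list genes at 2-fold or more and others by step, markers and Lamtor1. The calculation was tested on simulated data. limma 3.58.1 gave normexp (offset 50), quantile and loess values.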

Additional observations from a re-analysis of the deposited data

How the results depend on the processing

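No paired analysis was possible because each group has 1 array and no test was made. The count of genes at least 2-fold higher, 3, was 2 as the median over probes and 3 under the 11 other alternatives. The count at least 2-fold lower, 1 (Wipi1), was 0 with median scaling, quantile normalization, cyclic loess, normexp or the median over probes. The count above 0, 25, was 22 when the 75th percentile was taken over probes above background. Ambra1, Atg2a and Atg4b were then at -0.03, -0.02 and -0.01. The share of all measured genes above 0 in that setting is not given here. The median difference, 0.39, was 0.49 with median scaling and 0.44 with cyclic loess. It was 0.32 without a filter on dim probes, which adds Optn, and 0.25 as the median over probes. Without Tecpr1, Tax1bp1 and Atg7 it was 0.24, a setting chosen after the data were seen that could not raise the median. At 1.5-fold, 13 genes were higher with median scaling against 6, and 8 with cyclic loess. It was 5 with quantile normalization or the percentile over probes above background. In the lower direction, 1 gene reached 1.5-fold with cyclic loess or normexp against 2. Of 396 values of single genes under the 12 alternatives, 5 had the other sign, 1 each for Ambra1, Atg2a, Atg4b, Ulk2 and Wipi2. Median scaling and the percentile over probes above background move every gene by the same amount. The median of all measured genes was then 0.03 and -0.10. The set's median lay 0.45 above it in both, as in the main setting, since such a shift cannot change this gap. The gap was 0.41 with quantile normalization, 0.43 with cyclic loess and 0.46 with normexp. It was 0.35 without a filter on dim probes and 0.32 as the median over probes. The cause of the other shifts was not tested. Signal over background limits Optn, Atg2b, Calcoco1 and Wipi1, and the lowest signals well above background were 18.7 (control) and 20.2 (knockdown).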

Other observations

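Some paralogs lay apart on these arrays. The difference was 0.80 for Gabarap and 0.23 for Gabarapl1, 0.02 for Atg2a and -0.68 for Atg2b, 0.52 for Atg4d and 0.03 for Atg4b, and 0.10 for Atg16l1 and -0.21 for Atg16l2. None of these gaps was tested, and the widest gap between probes of 1 gene was 0.76.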
